A study of Homo sapiens with 8 samples.

Results

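The 10 genes described here encode AP-1 transcription factors and other immediate early proteins. They are FOS, FOSL1, FOSL2, JUN, JUNB, ATF3, EGR1, KLF6, DUSP1 and IER3. They were taken by symbol from a table of 23368 genes, where each of the 10 had a row and each passed the filter on low counts. RNA had been sequenced from MDA-MB231 cells, an established human cell line from a triple-negative breast cancer. The cells had been transfected with siE1, siE2 or siE3, which are 3 different small interfering RNAs against the mRNA of ESRRA, or with the control siRNA siC. ESRRA encodes the orphan nuclear receptor ERRα. Every group had 2 libraries, so each mean ± SD below has n = 2. The cells of all 4 groups were grown in DMEM with fetal calf serum and transfected with the same reagent, and the labels give no time after transfection.

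AP-1 is a dimer of basic leucine zipper proteins, usually a Jun protein bound to a Fos or ATF protein, and it acts on DNA at a short palindromic element. Several of its genes, FOS among them, are classic immediate early genes. Growth factors and stress switch these on through the MAP kinases within minutes, without new protein synthesis, and their mRNAs are short-lived. EGR1 and KLF6 are zinc finger factors of the same early response, DUSP1 is a phosphatase that shuts MAP kinases off again, and IER3 is a small early-response protein linked to cell survival. In breast cancer cells of the mesenchymal type, FOSL1 (the protein Fra-1) is known as the prominent Fos protein.

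Total counts ran from 21835995 to 25880548 per library. ESRRA lay between 7.25 and 10.5 CPM (counts relative to the library total, scaled by TMM factors) in the 6 libraries of siE1, siE2 and siE3, against 62.9 and 64.8 CPM in the siC libraries. The markers listed for the line were expressed: VIM, which encodes the mesenchymal filament vimentin, averaged 3647 CPM (siE1), 3170 CPM (siE2), 3990 CPM (siE3) and 3606 CPM (siC). The epithelial keratin gene KRT8 stood at 317, 316, 237 and 239 CPM in these groups and KRT18 at 263, 237, 218 and 268 CPM. With CD44, AXL and ITGB1, the 6 genes summed to 6945 to 7786 CPM. The 6 luminal markers summed to 15.3 to 21.9 CPM, and PGR among them had no count in any library. Fibroblast markers summed to at most 10.2 CPM. Of 4 blood cell markers, CD68, a lysosomal protein gene, held nearly all of the sum, with means of 423 CPM (siE1), 292 CPM (siE2), 324 CPM (siE3) and 220 CPM (siC), while CD3E had no count and PTPRC had 4 counts in all, from the siE2 libraries. Whether the libraries of a group stem from separate cultures is not in the labels, and the p-values below therefore hold for the spread among these libraries only, which could be technical. In RNA from whole cultures, fewer cells expressing a gene and less of its RNA per cell cannot be told apart.

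The promoters are shown first, because early genes are known to be switched on through promoter elements, some of which were searched for here. RefSeq windows on GRCh38.p14, from 250 bases before to 50 bases after a start site, matched 8 of the 10 genes by symbol, with 2 windows for ATF3. FOSL1 and IER3 are named only. The stretches below run 5′ to 3′ on the strand of the gene and stop before the start site, with capitals marking every match to the motifs searched.

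EGR1: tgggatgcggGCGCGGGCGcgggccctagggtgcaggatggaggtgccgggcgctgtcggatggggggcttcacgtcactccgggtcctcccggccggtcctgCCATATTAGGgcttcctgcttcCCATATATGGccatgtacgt
DUSP1: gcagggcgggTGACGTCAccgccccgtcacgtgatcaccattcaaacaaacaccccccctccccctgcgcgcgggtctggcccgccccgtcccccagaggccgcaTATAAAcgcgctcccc
KLF6: ggggagccagGCGGGGGCGgagggggagg
FOS: aaacgcttgtTATAAAagcagtggct
JUNB: actagcgcggTATAAAggcgtgtggc

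The EGR1 stretch is chr5:138465271-138465415 on the plus strand and holds 2 CArG boxes, the element bound by serum response factor, at positions -105 to -96 and -83 to -74 from the start site, and 1 match to the EGR motif GCGNGGGCG further upstream. The DUSP1 stretch is chr5:172771210-172771330 on the minus strand and holds a cyclic AMP response element, TGACGTCA, and a TATA box, TATAAA. The KLF6 stretch is chr10:3785256-3785284 on the minus strand and holds an EGR motif. The FOS stretch, chr14:75278785-75278810, and the JUNB stretch, chr19:12791445-12791470, both on the plus strand, show the TATA box. FOSL2 had 1 AP-1 match, TGACTCA, at positions 5 to 11, after its start, and 1 of the ATF3 windows had a TATAAA match at -230 to -225. JUN and the other ATF3 window had no match to any of the motifs. Only exact matches within the windows were sought, so sites with other letters or further upstream were not seen. A missing match therefore does not show that a gene lacks such control. Both strands were searched, and none of the matches overlapped another. Among 35116 windows of the same length, 1.29% held a CArG box, 1.85% TGACGTCA, 7.71% the AP-1 motif TGANTCA, 9.43% the EGR motif and 11.5% TATAAA. The ERR element TNAAGGTCA was in 0.951% of all windows and these letters were not in the windows of the 8 genes.

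In the GENCODE 29 annotation of GRCh38, FOS spans chr14:75278774-75282230 (plus strand), FOSL1 chr11:65892049-65900573 (minus), FOSL2 chr2:28392448-28417312 (plus), JUN chr1:58780788-58784327 (minus) and JUNB chr19:12791496-12793315 (plus). ATF3 spans chr1:212565334-212620777 (plus), EGR1 chr5:138465490-138469315 (plus), KLF6 chr10:3775996-3785281 (minus), DUSP1 chr5:172768090-172771195 (minus) and IER3 chr6:30743199-30744554 (minus). The counts were made on hg19, and these positions serve only to place the genes.

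The 10 genes did not move together. With siE1, 5 rose (IER3, JUNB, KLF6, FOSL2 and JUN) and 0 fell at an edgeR adjusted p below 0.05, where 24.5% of the 13395 tested genes rose and 25.8% fell. The count of 0 was also 0 at an unadjusted p below 0.05, and by DESeq2 and limma. With siE2, 3 rose (KLF6, IER3 and FOSL2) and 1 fell (FOSL1), against 27.9% rising and 28.5% falling over all genes. With siE3, 2 rose (KLF6 and IER3) and 3 fell (DUSP1, ATF3 and FOS), against 21.3% and 20.8%. In the average of the 3 siRNAs, 5 rose and DUSP1 fell, against 23.4% and 27.7%. The median log2 fold change over the 10 genes was 0.18 with siE1, 0.12 with siE2 and 0.06 with siE3, beside -0.008, 0.006 and -0.002 over all tested genes. With shares this high among all genes, counts over 10 genes are read as descriptions, gene by gene. The siRNAs share the siC libraries, so their fold changes are not independent of each other. By the adjusted p of the authors' deposited table, 13 of the 14 calls against siC were below 0.05, and FOS with siE3 was not (0.079).

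**Figure D1:**
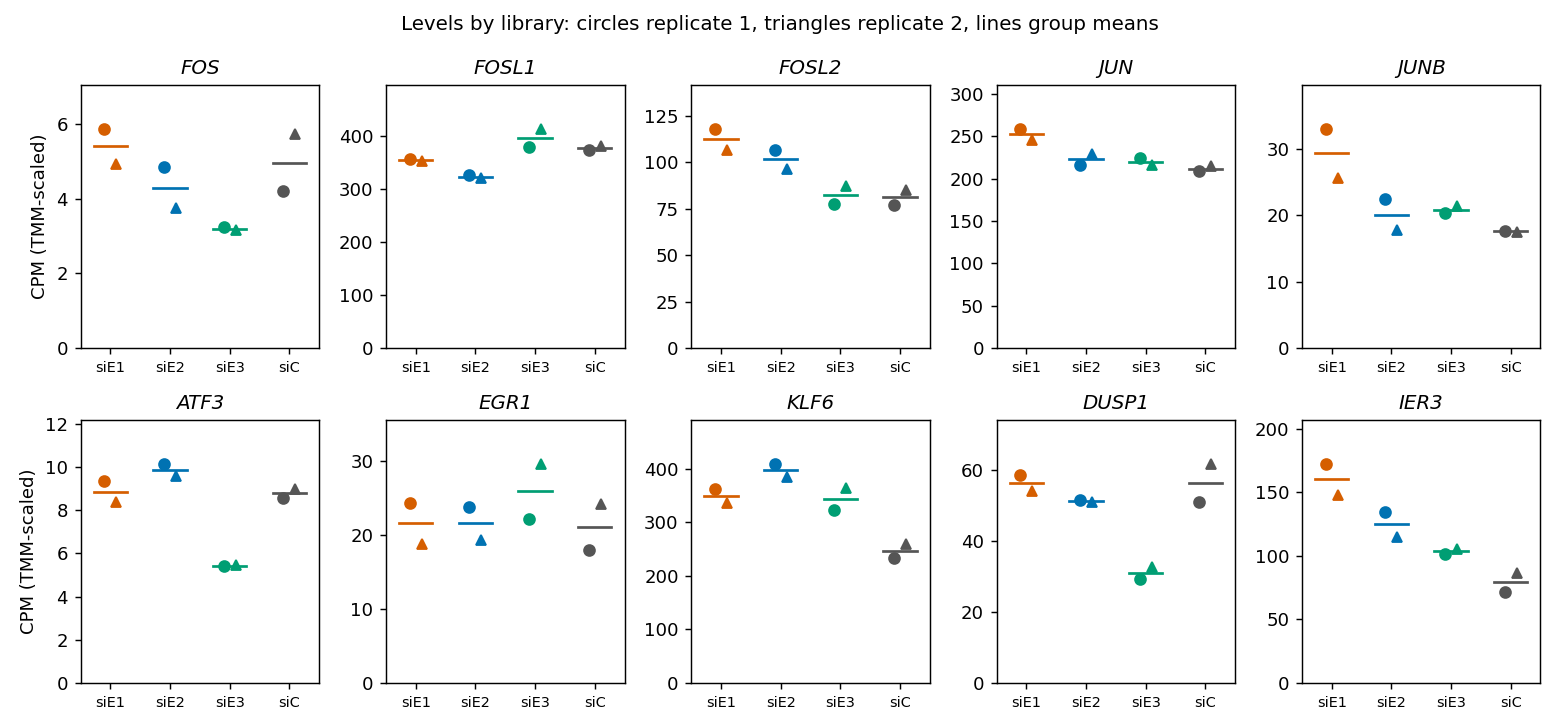
CPM (TMM-scaled, linear axes from 0) of the 10 genes in each of the 8 libraries, with circles for replicate 1, triangles for replicate 2 and a line for the mean of each siRNA. KLF6 and IER3 are above both siC libraries in all 6 libraries of siE1, siE2 and siE3, while DUSP1, ATF3 and FOS are below both siC libraries with siE3.

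**Figure D2:**
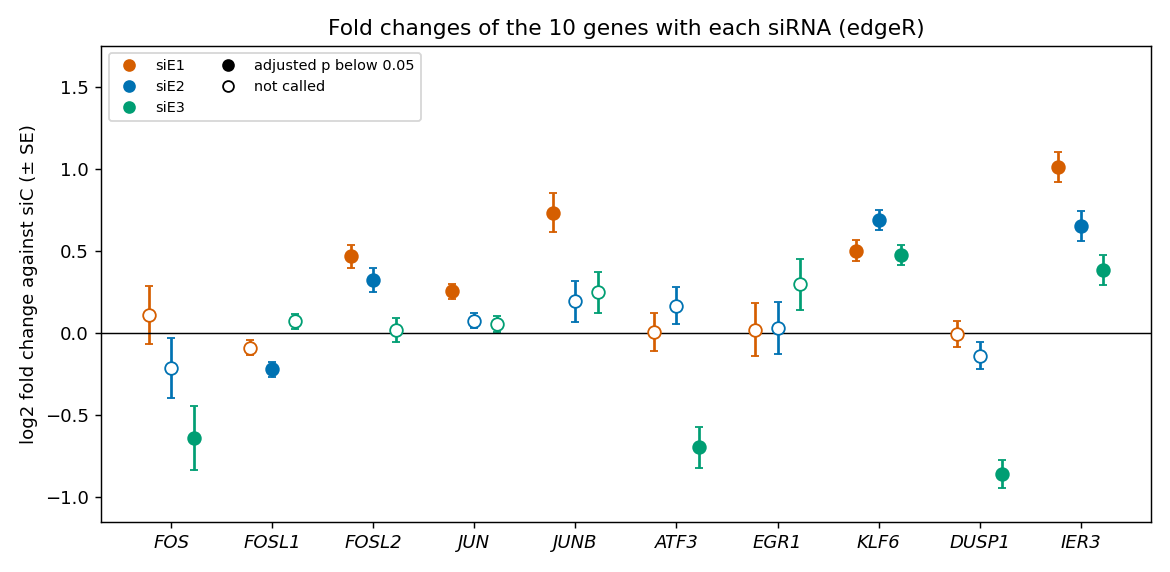
log2 fold change against siC with its standard error for each gene and siRNA (edgeR), filled where the adjusted p was below 0.05. IER3 with siE1 is highest at 1.01, and DUSP1 with siE3 is lowest at -0.86.

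Per kilobase of exon (GENCODE 29, union of annotated exons), the levels spanned a wide range, and FOSL1 stood at the top in every group. These lengths need not match the annotation used for the counts, which is not given, so ranks between genes depend on them. FOSL1 reached 188 ± 1.83 CPM per kb with siE1, 171 ± 2.20 with siE2, 210 ± 12.7 with siE3 and 199.9 ± 2.94 with siC. IER3 was second with each ESRRA siRNA, at 118 ± 12.9 (siE1), 92.0 ± 10.4 (siE2) and 76.5 ± 2.01 CPM per kb (siE3), against 58.5 ± 7.76 in siC, where it could not be ranked against JUN at 59.8 ± 1.11, since their libraries overlapped. KLF6 (40.2 ± 2.82 CPM per kb in siC), DUSP1 (27.99 ± 3.78) and FOSL2 (11.3 ± 0.764) followed in the control cells. JUNB was at 9.64 ± 0.0528 CPM per kb in siC and EGR1 at 6.71 ± 1.40, and these did not overlap. ATF3 at 2.18 ± 0.0731 and FOS at 1.54 ± 0.337 CPM per kb were the lowest of the 10 in siC, and they kept the last places with siE1, siE2 and siE3. With siE2 KLF6 (64.7 ± 2.97) and JUN (63.0 ± 2.65 CPM per kb) overlapped, as did JUNB (16.1 ± 2.86) and FOSL2 (15.7 ± 1.13) with siE1 and, again, with siE3.

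Among the Fos genes, FOSL2 rose with siE1 and siE2, FOSL1 fell slightly with siE2, and FOS fell with siE3. FOSL1, the abundant one, had 357 and 352 CPM with siE1, 326 and 320 CPM with siE2 and 379 and 413 CPM with siE3, against 373 and 381 CPM with siC. Its siE2 libraries were below both siC libraries, and the log2 fold change was -0.22 (SE 0.0456, edgeR adjusted p = 0.00066). The siE1 libraries were also lower than both of siC, at -0.09 (SE 0.0455, edgeR adjusted p = 0.11), and siE3 overlapped siC, at 0.07 (SE 0.0454, edgeR adjusted p = 0.23). FOSL1 was called with siE1 without siE3 replicate 1 (-0.09, edgeR adjusted p = 0.044) or without siE3 replicate 2 (-0.09, edgeR adjusted p = 0.043), and with siE3 without siE3 replicate 1 (0.13, edgeR adjusted p = 0.030), where leaving out siE3 replicate 2 gave 0.008 (edgeR adjusted p = 0.91). Its average over the siRNAs, -0.08 (SE 0.037, edgeR adjusted p = 0.083), passed without siE3 replicate 2 (-0.10, edgeR adjusted p = 0.011). FOSL2 encodes Fra-2, the closest relative of Fra-1. It had 118 and 107 CPM with siE1, 107 and 96.5 CPM with siE2 and 77.3 and 87.0 CPM with siE3, against 77.3 and 85.1 CPM with siC. All 4 libraries of siE1 and siE2 were above siC, with log2 fold changes of 0.47 (SE 0.072, edgeR adjusted p = 6.6e-05) and 0.32 (SE 0.0724, edgeR adjusted p = 0.0014). With siE3 the FOSL2 libraries overlapped siC (0.02, SE 0.0735, edgeR adjusted p = 0.87).

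FOS itself, the prototype early gene, was scarce, with 71 to 134 counts per library. It had 5.87 and 4.94 CPM with siE1, 4.84 and 3.75 CPM with siE2 and 3.25 and 3.16 CPM with siE3, against 4.20 and 5.74 CPM with siC. The siE3 libraries were below both siC libraries, at -0.64 on the log2 scale (SE 0.194, edgeR adjusted p = 0.015), while those of siE1 (0.11, SE 0.176, edgeR adjusted p = 0.63) and siE2 (-0.21, SE 0.183, edgeR adjusted p = 0.34) overlapped siC. The siE3 call of FOS was lost when any 1 of 3 libraries was left out. Without siC replicate 2 the value itself moved, to -0.39. It stayed close without siE3 replicate 1 (-0.66) or siE3 replicate 2 (-0.62), where the SE was larger, at 0.248 and 0.249. In the average FOS was at -0.25 (SE 0.15, edgeR adjusted p = 0.18), and it was called there without siC replicate 1 (-0.45, edgeR adjusted p = 0.049), while without siC replicate 2 it was at -0.001 (edgeR adjusted p = 1.0).

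On the Jun side, JUN and JUNB rose with siE1. JUN encodes c-Jun, the main DNA-binding partner of the Fos proteins, and had 259 and 246 CPM with siE1, 216 and 229.8 CPM with siE2 and 224 and 216 CPM with siE3, against 209 and 215 CPM with siC. The 6 libraries of siE1, siE2 and siE3 were above both siC libraries, some by a narrow margin. The log2 fold change was 0.25 with siE1 (SE 0.0466, edgeR adjusted p = 0.00033), 0.08 with siE2 (SE 0.0467, edgeR adjusted p = 0.19) and 0.06 with siE3 (SE 0.0468, edgeR adjusted p = 0.37). JUN with siE2 passed when library size alone was used for scaling (0.12, edgeR adjusted p = 0.040). In the average JUN was at 0.13 (SE 0.0384, edgeR adjusted p = 0.011), a call that was lost without siC replicate 1 (0.11, edgeR adjusted p = 0.12). JUNB, a Jun protein known to restrain c-Jun at some promoters, had 33.0 and 25.6 CPM with siE1, 22.4 and 17.8 CPM with siE2 and 20.3 and 21.4 CPM with siE3, against 17.6 and 17.5 CPM with siC. Again each of the 6 libraries exceeded both of siC. Its log2 fold change was 0.73 with siE1 (SE 0.119, edgeR adjusted p = 0.00011), 0.19 with siE2 (SE 0.124, edgeR adjusted p = 0.20) and 0.25 with siE3 (SE 0.124, edgeR adjusted p = 0.12). JUNB with siE2 was at 0.35 without siE2 replicate 2 (edgeR adjusted p = 0.044) and at 0.02 without siE2 replicate 1 (edgeR adjusted p = 0.93). It passed with siE3 when siE3 and siC were fitted on their own (0.25, edgeR adjusted p = 0.042).

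ATF3, a stress-induced zipper protein that pairs with Jun proteins and often represses, fell with siE3. It had 9.35 and 8.38 CPM with siE1, 10.2 and 9.58 CPM with siE2 and 5.39 and 5.45 CPM with siE3, against 8.58 and 8.998 CPM with siC. The siE3 libraries were far below all others and nearly alike. The log2 fold change was -0.70 with siE3 (SE 0.125, edgeR adjusted p = 0.00035), 0.17 with siE2 (SE 0.113, edgeR adjusted p = 0.23) and 0.01 with siE1 (SE 0.115, edgeR adjusted p = 0.96). ATF3 libraries differed little within a group: the ratio of the higher to the lower CPM was at most 1.117, against at most 1.37 for FOS, which had fewer counts.

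Of the zinc finger factors, KLF6 rose with every ESRRA siRNA and EGR1 was not called with any. KLF6, known as a tumour suppressor candidate and an early factor in injured tissue, had 362 and 337 CPM with siE1, 410.0 and 384 CPM with siE2 and 323 and 364 CPM with siE3, against 234 and 259 CPM with siC. All 6 libraries were above both siC libraries by a clear margin. Its log2 fold changes were 0.50 (SE 0.0624, edgeR adjusted p = 8.1e-06), 0.69 (SE 0.0623, edgeR adjusted p = 2.2e-07) and 0.48 (SE 0.0624, edgeR adjusted p = 1.9e-05) with siE1, siE2 and siE3. In the average KLF6 was 1.47 times the siC level. EGR1, the serum-responsive factor with the CArG boxes shown above, had 24.3 and 18.7 CPM with siE1, 23.7 and 19.3 CPM with siE2 and 22.2 and 29.6 CPM with siE3, against 17.9 and 24.2 CPM with siC. The 2 libraries of each siRNA lay far apart and every group overlapped siC. The log2 fold change of EGR1 was 0.02 (SE 0.16) with siE1, 0.03 (SE 0.16) with siE2 and 0.30 (SE 0.157) with siE3, with edgeR adjusted p of 0.92, 0.89 and 0.15. These standard errors were over 3 times those of JUN, so that a change of the size seen for JUN with siE1 would not have been detectable in EGR1. EGR1 was called with siE3 in some settings: without siC replicate 2 (0.53, edgeR adjusted p = 0.034), without siE3 replicate 1 (0.49, edgeR adjusted p = 0.037) and when genes with low counts were kept (0.30, edgeR adjusted p = 0.027). The value shrank to 0.07 without siE3 replicate 2 (edgeR adjusted p = 0.79) and to 0.10 without siC replicate 1 (edgeR adjusted p = 0.69), so its size depended on single libraries. Its direction with siE1 turned without siC replicate 1 (-0.18, edgeR adjusted p = 0.43) or siE1 replicate 1 (-0.17, edgeR adjusted p = 0.46).

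DUSP1 and IER3 went different ways. DUSP1, the nuclear phosphatase that inactivates p38, JNK and ERK, fell with siE3. It had 58.6 and 54.3 CPM with siE1, 51.7 and 51.05 CPM with siE2 and 29.4 and 32.8 CPM with siE3, against 51.1 and 61.9 CPM with siC. The siE3 libraries were far below the other 6, at -0.86 on the log2 scale (SE 0.0865, edgeR adjusted p = 1.3e-06), or 0.551 of the siC level. The siE1 libraries lay between those of siC (-0.01, SE 0.0813, edgeR adjusted p = 0.96), and 1 of the siE2 libraries was just below them (-0.14, SE 0.0821, edgeR adjusted p = 0.16). DUSP1 was called with siE2 without siC replicate 1 (-0.27, edgeR adjusted p = 0.012) and was at 0.005 without siC replicate 2 (edgeR adjusted p = 0.97). In the average it was at -0.34 (SE 0.0669, edgeR adjusted p = 0.00063), and this call was lost without siC replicate 2 (-0.19, edgeR adjusted p = 0.056).

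IER3 rose with every ESRRA siRNA, most with siE1. It had 173 and 148 CPM with siE1, 135 and 115 CPM with siE2 and 102 and 106 CPM with siE3, against 71.9 and 86.8 CPM with siC. The 4 groups did not overlap at all, and siE1 was followed by siE2, siE3 and siC. The log2 fold change was 1.01 with siE1 (SE 0.09, edgeR adjusted p = 2.5e-07), 0.65 with siE2 (SE 0.0909, edgeR adjusted p = 2.0e-05) and 0.39 with siE3 (SE 0.0918, edgeR adjusted p = 0.0033). Without siC replicate 1 the siE3 call was lost (0.26, edgeR adjusted p = 0.053). The 10 interferon genes listed summed to 625 and 590 CPM with siE1, 590 and 554 CPM with siE2 and 496 and 557 CPM with siE3, against 477 and 509.9 CPM with siC. Their siE1 and siE2 libraries were above both of siC, and those of siE3 overlapped siC. Of the 9 that could be tested, 7 rose with siE1, 4 with siE2 and 5 with siE3, and 0, 1 and 1 fell, beside 24.5%, 27.9% and 21.3% of all genes rising. IFIT1 was at 1.19, 1.53 and 0.76, ISG15 at 0.68, 0.14 (edgeR adjusted p = 0.12) and 0.33, IFIT2 at 0.61, 1.01 and -0.06 (edgeR adjusted p = 0.76) and IFIH1 at 0.90, 0.61 and 0.83. Their part in the rise of IER3 was not tested.

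The siRNAs differed from each other at many of these genes, as they did over all genes. Of 30 differences (10 genes, 3 pairs of siRNAs), 19 were called in edgeR. Of the 13395 tested genes, 7654 were called between siE1 and siE2, 6529 between siE1 and siE3 and 6491 between siE2 and siE3. Between siE1 and siE3, 7 of the 10 genes were higher with siE1 and 1 lower, where 23.3% and 25.4% of all genes were. Between siE1 and siE2, 4 were higher with siE1 and 1 lower (28.5% and 28.6% of all genes), and between siE2 and siE3, 5 were higher with siE2 and 1 lower (23.4% and 25.0%). The target also differed: ESRRA averaged 10.4 ± 0.113 CPM with siE1, 8.06 ± 1.14 with siE2 and 8.43 ± 0.171 with siE3, with siE1 above siE2 by 0.37 (SE 0.108, edgeR adjusted p = 0.0092) and above siE3 by 0.30 (SE 0.108, edgeR adjusted p = 0.031), and its part in the differences below was not tested.

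DUSP1 and ATF3 set siE3 apart from both others. DUSP1 was higher with siE1 than with siE3 by 0.85 (SE 0.0862, edgeR adjusted p = 1.1e-06) and with siE2 than with siE3 by 0.72 (SE 0.087, edgeR adjusted p = 6.6e-06). For ATF3 the differences were 0.70 (SE 0.124, edgeR adjusted p = 0.00025) and 0.86 (SE 0.122, edgeR adjusted p = 3.3e-05). FOS was higher with siE1 than with siE3 by 0.75 (SE 0.19, edgeR adjusted p = 0.0044), and between siE2 and siE3 it was at 0.42 (SE 0.199, edgeR adjusted p = 0.091), which became 0.60 without siE2 replicate 2 (edgeR adjusted p = 0.049) and 0.22 without siE2 replicate 1 (edgeR adjusted p = 0.50). JUNB set siE1 apart: it exceeded siE2 by 0.54 (SE 0.117, edgeR adjusted p = 0.0010) and siE3 by 0.49 (SE 0.117, edgeR adjusted p = 0.0030). Without siE1 replicate 1 these became 0.35 (edgeR adjusted p = 0.022) and 0.30 (edgeR adjusted p = 0.058). JUN was likewise higher with siE1, by 0.18 over siE2 (SE 0.0464, edgeR adjusted p = 0.0041) and 0.20 over siE3 (SE 0.0465, edgeR adjusted p = 0.0025), and the first call was lost without siE1 replicate 1 (0.14, edgeR adjusted p = 0.058) or siE2 replicate 1 (0.14, edgeR adjusted p = 0.052).

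FOSL2 was higher with siE1 than with siE3 by 0.45 (edgeR adjusted p = 0.00011) and with siE2 than with siE3 by 0.31 (edgeR adjusted p = 0.0027), while siE1 and siE2 were 0.14 apart (SE 0.0708, edgeR adjusted p = 0.094). That last difference passed without siE1 replicate 2 (0.22, edgeR adjusted p = 0.043), without siE2 replicate 1 (0.23, edgeR adjusted p = 0.039) and when genes with low counts were kept (0.15, edgeR adjusted p = 0.039), and it shrank to 0.07 without siE1 replicate 1 (edgeR adjusted p = 0.51) or siE2 replicate 2 (edgeR adjusted p = 0.50). FOSL1 was the gene that was lower with siE1 and with siE2 than with siE3, by -0.16 (edgeR adjusted p = 0.0084) and -0.29 (edgeR adjusted p = 7.6e-05), and it was 0.13 higher with siE1 than with siE2 (edgeR adjusted p = 0.022). The siE1 to siE3 call of FOSL1 was lost without siE1 replicate 2 (-0.15, edgeR adjusted p = 0.058) or siE3 replicate 2 (-0.10, edgeR adjusted p = 0.083). The siE1 to siE2 call was lost without siE1 replicate 1 (0.12, edgeR adjusted p = 0.10), siE1 replicate 2 (0.14, edgeR adjusted p = 0.063) or siE2 replicate 2 (0.12, edgeR adjusted p = 0.12), and it was at the threshold with library size alone (0.098, edgeR adjusted p = 0.050).

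IER3 was higher with siE1 than with siE2 by 0.36 (edgeR adjusted p = 0.0024) and than with siE3 by 0.63 (SE 0.0883, edgeR adjusted p = 3.3e-05), and with siE2 than with siE3 by 0.27 (edgeR adjusted p = 0.023). The last of these was lost without siE2 replicate 1 (0.14, edgeR adjusted p = 0.29), siE3 replicate 1 (0.24, edgeR adjusted p = 0.10) or siE3 replicate 2 (0.29, edgeR adjusted p = 0.054), and with the DESeq2 Wald test (0.27, adjusted p = 0.14). KLF6 was lower with siE1 than with siE2 by -0.19 (edgeR adjusted p = 0.018) and higher with siE2 than with siE3 by 0.21 (edgeR adjusted p = 0.011), and both calls were lost without siE2 replicate 1 (-0.13 and 0.16, edgeR adjusted p = 0.17 and 0.11). The first was also lost without siE1 replicate 2 (-0.135, edgeR adjusted p = 0.15) and the second without siE3 replicate 1 (0.125, edgeR adjusted p = 0.13). EGR1 had no call between siRNAs, at -0.28 (SE 0.156, edgeR adjusted p = 0.16) for siE1 against siE3 and -0.27 (SE 0.157, edgeR adjusted p = 0.17) for siE2 against siE3. Both passed without siE3 replicate 1 (-0.47 and -0.46, edgeR adjusted p = 0.036 and 0.039) and when genes with low counts were kept (-0.28 and -0.28, edgeR adjusted p = 0.035 and 0.038), and the first also without siE1 replicate 1 (-0.47, edgeR adjusted p = 0.043). Without siE3 replicate 2 they were near 0, at -0.05 and -0.04 (edgeR adjusted p = 0.84 and 0.87).

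The make-up of the AP-1 families was read from CPM per kb of exon, with FOSB and JUND added to complete them. FOSL1 made up 91.4 ± 0.566% of the summed Fos family mRNA with siE1, 91.5 ± 0.523% with siE2, 94.3 ± 0.0990% with siE3 and 93.8 ± 0.396% with siC. FOSL2 had most of the rest, at 7.64 ± 0.427%, 7.58 ± 0.394%, 5.15 ± 0.112% and 5.32 ± 0.259% in the same 4 groups. FOS and FOSB stayed at or below 0.812% and 0.181% in the mean of any group. The Fos pool was thus nearly all Fra-1 and Fra-2 mRNA in every group, and its sum stood at 206 ± 3.25 CPM per kb with siE1, 187 ± 3.54 with siE2 and 223 ± 13.7 with siE3, against 213 ± 4.03 with siC.

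The Jun pool changed more. Its sum was 137 ± 6.58 CPM per kb with siE1, 122 ± 1.41 with siE2 and 104 ± 0.919 with siE3, against 98.4 ± 0.969 with siC, and the libraries of each ESRRA siRNA were above both of siC. JUND, the Jun gene that is usually expressed without stimulation, supplied much of the rise with log2 fold changes of 0.77 (SE 0.0549, edgeR adjusted p = 2.3e-08) and 0.72 (SE 0.0551, edgeR adjusted p = 3.4e-08) with siE1 and siE2, and stood at 0.07 with siE3 (SE 0.0569, edgeR adjusted p = 0.35). Its share of the pool was 36.1 ± 0.870% with siE1, 39.2 ± 1.42% with siE2 and 29.2 ± 0.453% with siE3, against 29.4 ± 0.375% with siC. The share of JUN was 52.2 ± 0.644%, 51.8 ± 2.77% and 59.8 ± 0.948% with siE1, siE2 and siE3, against 60.8 ± 0.523% with siC. These sums and shares describe mRNA, depend on the exon lengths used and were not tested.

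**Figure D3:**
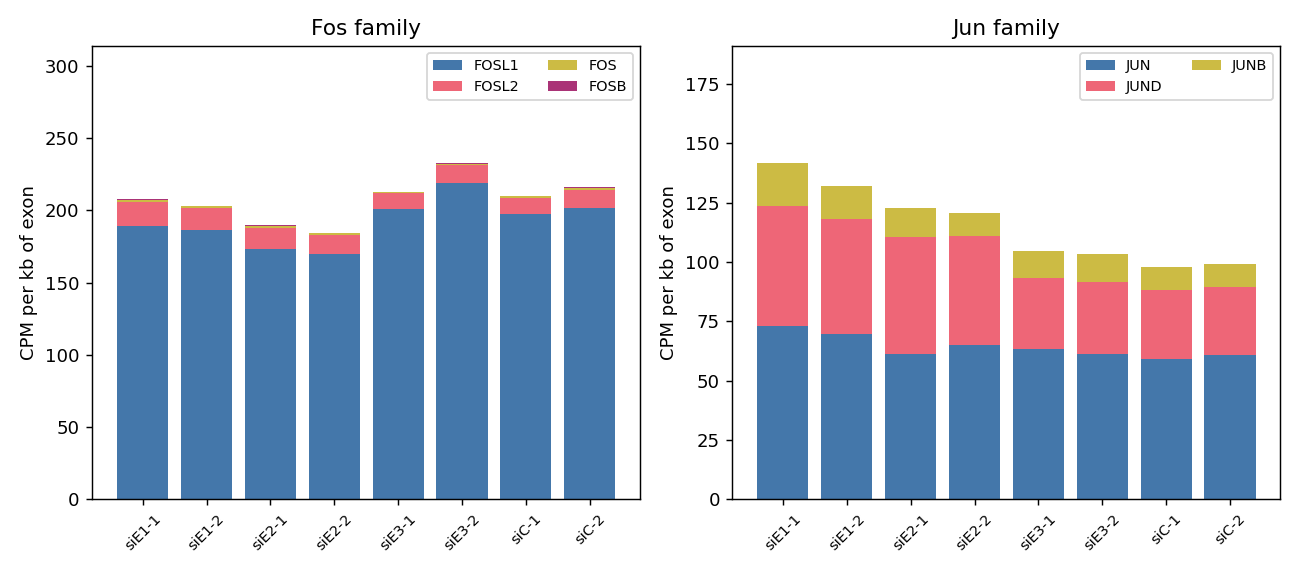
Summed level of the Fos genes (left) and Jun genes (right) in each library, in CPM per kb of exon, stacked by gene. FOSL1 fills 91.4% (siE1) to 94.3% (siE3) of the Fos bars by group mean, and the Jun bars of siE1 and siE2 are taller than those of siC, with a larger JUND part.

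Libraries of the same siRNA differed at most of these genes in 1 common direction, some by very little. With siE1, replicate 1 was higher than replicate 2 for 10 of the 10 genes, and with siE2 for 9 of them, JUN being the other. With siE3, replicate 2 was higher for 8 genes, all but FOS and JUN, and with siC for 9 genes, all but JUNB. Among all tested genes the split was near even, with 51.7% and 50.6% higher in replicate 1 of siE1 and siE2, and 51.2% and 52.3% higher in replicate 2 of siE3 and siC. For EGR1 the higher library was 1.298, 1.228, 1.335 and 1.347 times the lower with siE1, siE2, siE3 and siC. FOS reached 1.37 with siC, and JUNB 1.29 with siE1, while FOSL1 was at most 1.09 and JUN at most 1.06. The within-group SD of log2 CPM was 0.271 for EGR1, 0.222 for FOS, 0.175 for JUNB and 0.150 for IER3, beside a median of 0.0798 over all tested genes, and 0.0464 for FOSL1 and 0.0456 for JUN. The other immediate early genes listed, 29 of them tested, leaned the same ways: 23 and 20 were higher in replicate 1 of siE1 and siE2, and 21 and 25 in replicate 2 of siE3 and siC.

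**Figure D4:**
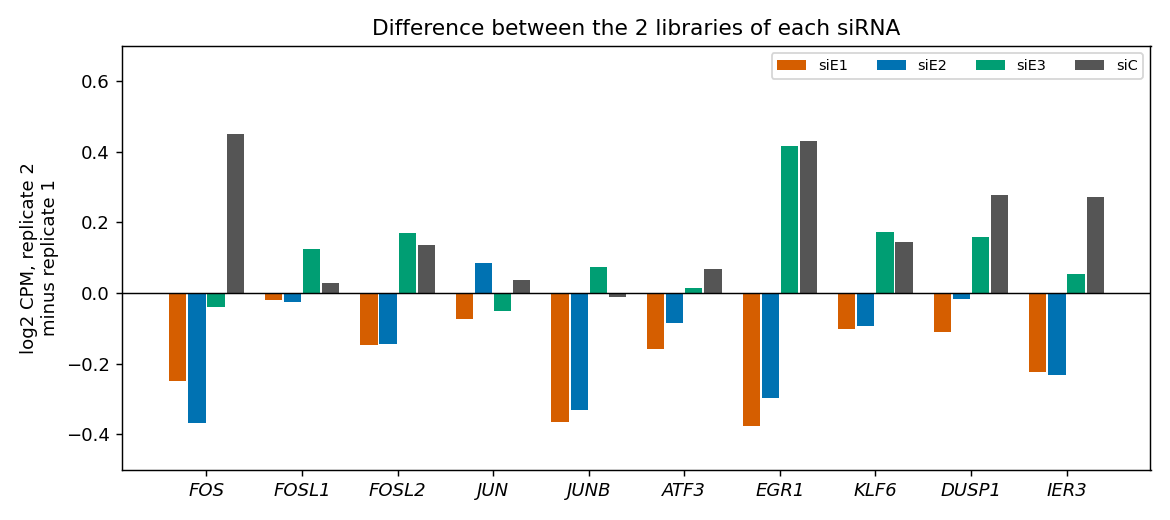
log2 CPM of replicate 2 minus replicate 1 for each gene, by siRNA (bars from 0). The siE1 and siE2 bars point down for nearly every gene and most siE3 and siC bars point up, with FOS reaching 0.45 and EGR1 0.43 with siC.

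The rest of the early response was mixed. Of 29 other immediate early genes tested, 16 rose and 2 fell with siE1, 11 rose and 7 fell with siE2, and 7 rose and 10 fell with siE3, with medians of 0.25, 0.11 and -0.02. Over all tested genes, siE1 had 24.5% rising and 25.8% falling, siE2 27.9% rising and 28.5% falling, and siE3 21.3% rising and 20.8% falling, and the siE2 counts in particular are not far from these shares. In the average of the siRNAs 10 rose and 7 fell, beside 23.4% and 27.7% of all genes, and the lists below are to be read against the same shares. IER5L, a relative of the early gene IER5, rose by 0.63, 0.92 and 0.52 with siE1, siE2 and siE3, and the kinase gene SIK1 by 0.84, 1.06 and 0.64. PHLDA1 rose by 0.26, 0.40 and 0.66. CTGF, a matrix protein gene driven by YAP and serum, was at -0.70, -0.40 and -0.98, called lower each time. Of 12 tested relatives of the AP-1 proteins, 4 rose and 3 fell in the average (median 0.00): ATF2, a zipper protein that pairs with c-Jun, was at 0.31, 0.87 and 0.63 with siE1, siE2 and siE3, while BATF3 was at -0.07 (edgeR adjusted p = 0.63), -0.83 and -0.45 and MAFG at -0.37, -0.24 and -0.13 (edgeR adjusted p = 0.11 for the last).

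Upstream, of 19 genes of the RAS and MAPK cascade, 4 rose and 6 fell with siE1, 4 rose and 11 fell with siE2, and 3 rose and 6 fell with siE3, with medians of 0.06, -0.25 and -0.11. The siE1 and siE3 counts are near the shares over all genes (24.5% and 25.8%, and 21.3% and 20.8%). NRAS was at -1.21 with siE1, -0.81 with siE2 and -0.09 with siE3 (edgeR adjusted p = 0.19 for the last), and MAPK14, which encodes p38α, at -0.53, -0.68 and -0.31. MAPK3, which encodes ERK1, fell with siE1 (-0.65) and siE2 (-0.54) and rose with siE3 (0.32, edgeR adjusted p = 0.00045). Feedback genes other than DUSP1 split by gene, with 2 rising and 4 falling of 15 in the average: the phosphatase DUSP4 rose by 0.86, 0.92 and 0.59 and DUSP10, specific for p38 and JNK, by 0.55, 1.99 and 0.93, while DUSP7 was lower at -0.95, -0.38 and -0.32. DUSP5, specific for ERK, was at -0.11 (edgeR adjusted p = 0.080), -0.28 and -0.63.

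Of 14 factors that bind early promoters, 7 rose and 3 fell in the average (median 0.12). The serum response factor partners ELK4 and ELK3 went opposite ways: ELK4 was at 0.53, 0.74 and 0.46 with siE1, siE2 and siE3, and ELK3 at -0.03 (edgeR adjusted p = 0.67), -1.496 and -0.66. CREB1, which binds the element seen in the DUSP1 promoter, rose by 0.44, 0.44 and 0.39. ETV4, an ETS factor downstream of ERK, was at 0.22, -0.84 and -0.65, each called.

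Of 21 tested genes described elsewhere as AP-1 targets, 15 rose and 1 fell in the average (median 0.34), beside 23.4% rising and 27.7% falling over all genes, while siE1 had 14 up and 3 down, siE2 12 up and 5 down and siE3 12 up and 2 down. The receptor AXL was at 0.43, 0.65 and 0.27, VEGFA at 0.77, 0.78 and 0.59, and the cytokine IL11 at 1.84, 0.43 and 1.05, each called. PLAU, the urokinase gene, fell with siE1 (-0.30) and rose with siE2 (0.45) and siE3 (0.98). MMP1 had a lower mean than siC with each ESRRA siRNA, unlike PLAU with siE2 and siE3. It was at 8.49 ± 0.823 CPM with siE1, 6.57 ± 2.09 with siE2 and 3.93 ± 1.23 with siE3, against 11.1 ± 2.72 CPM with siC. The siC libraries of MMP1 lay apart, at 9.17 and 13.0 CPM, and its siE1 libraries were just below the lower of these, at 7.91 and 9.07 CPM. Many of these genes answer to factors other than AP-1 as well, and 2 of them, CD44 and AXL, are also among the markers of mesenchymal-type cells given above.

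Over the 8 libraries, other genes followed some of the 10 closely. The search took 2489 tested genes with at least 5 CPM and an SD of log2 CPM of at least 0.3. The libraries fall into 4 groups of 2, so the correlations mainly describe the groups, EGR1 aside. ATF3 was most like MAML1 (Pearson r = 0.993), CCDC97 (0.987) and JMJD8 (0.987). MAML1 averaged 147 CPM with siE1, 170.0 with siE2 and 75.0 with siE3, against 150.4 with siC, so it was low with siE3 as ATF3 was. JUN was most like APCDD1L (0.973), RABL5 (0.972) and ROBO4 (0.963), and ROBO4 averaged 99.9 CPM with siE1 and 44.9 with siC. FOSL1 was most like PI4K2B (0.965), TMEM41A (0.965) and PNRC2 (0.954). For EGR1 the highest values among the genes searched were lower, with TNFSF9 at 0.751, ABCA1 at 0.748 and CPEB4 at 0.718. The SD over the 8 libraries was 0.241 for EGR1, 0.122 for FOSL1 and 0.107 for JUN, so genes that varied as little as these were outside the search. For EGR1 the within-group SD was 0.271, so its correlations also take in differences between libraries of the same group.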

How the data were processed

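Total RNA of 8 libraries was sequenced, and per the labels' protocols it was extracted with an RNeasy kit. Per the submitters' processing notes, TopHat 1.3.3, HTSeq, DESeq and the build hg19 were used. Not given in the sources used here are the annotation and the strand setting, and a gene's reads cannot be separated from those of an overlapping or antisense partner. The deposited table holds, per the file headers, counts per symbol and the authors' linear fold (a ratio) and adjusted p-value for each siRNA against siC.

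From the counts, filterByExpr of edgeR 4.0.16 (R 4.3.3) kept 13395 of 23368 genes, TMM factors were 0.980 to 1.02, and the quasi-likelihood test was fitted across all genes and the 8 libraries with a mean per group (4 residual degrees of freedom, common biological coefficient of variation 4.08%), with Benjamini-Hochberg adjustment per comparison and a threshold of 0.05. SE is the log2 fold change over the root of F. Alternatives were DESeq2 1.42.0 (size factors, Wald test), limma 3.58.1 (voom), library size alone, no filter, a stricter filter, a block for the replicate number, a fit of only the compared groups, and each library left out. Totals of 21835995 to 25880548 counts set the counting precision, which is lowest for FOS and ATF3.

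The 10 genes, the lists and the tests were chosen with earlier results of these data known. From each list, up to 4 genes with the smallest p in the average of the siRNAs were named (1 such gene is not reported here), and for FOSL1, JUN, EGR1 and ATF3 the 3 genes with the highest correlation. FOSB, MMP1 and the statements on library direction were chosen after values were seen. Libraries of a group differed by more than sampling noise (chi-square over degrees of freedom 3.11 to 5.12).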

Additional observations from a re-analysis of the deposited data

Results flagged for a closer look

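Differences between siRNAs of at least 1.5-fold that passed the edgeR test (6 of the 30 tested) are listed here, as log2 differences. DUSP1 was higher by 0.85 with siE1 than with siE3 and by 0.72 with siE2 than with siE3. ATF3 was higher by 0.70 with siE1 than with siE3 and by 0.86 with siE2 than with siE3. FOS was higher by 0.75 with siE1 than with siE3. IER3 was higher by 0.63 with siE1 than with siE3. Single libraries far from their group were not looked for, since each group has 2.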

How the results depend on the processing

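Over the 7 comparisons and 10 genes, 538 of 550 values under other scalings, filters, tests and designs kept their direction and side of the threshold, as did 501 of 560 with a library left out. The numbers of genes called over all genes stayed within 1.5 times under each alternative. Deviations of same-numbered libraries correlated at -0.17 to 0.09 over genes, so no pairing by replicate number was seen. These correlations cannot settle whether same-numbered libraries were handled together, and the labels do not say. With the replicate number as a block, 6334, 7225 and 5221 genes were called with siE1, siE2 and siE3 against siC, and none of the 70 gene results changed its call. DUSP1 with siE1 turned to 0.004 with library size only, 0.009 with the stricter filter and 0.003 with only the groups compared. Without a filter, 2 of the 10 genes instead of 1 were lower in siE1 against siE3 and in siE2 against siE3.

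With each library left out in turn, log2 fold changes that changed sign ranged as follows. Against siC they were -0.096 to 0.356 for FOS, -0.178 to 0.253 for EGR1, -0.072 to 0.086 for ATF3 and -0.139 to 0.138 for DUSP1 with siE1. With siE2 they were -0.420 to 0.032 for FOS, -0.169 to 0.262 for EGR1 and -0.272 to 0.005 for DUSP1, with siE3 -0.071 to 0.100 for FOSL2, and in the average -0.082 to 0.348 for EGR1. Between siRNAs they were -0.202 to 0.174 for EGR1 (siE1 against siE2), -0.061 to 0.112 for KLF6 (siE1 against siE3), and -0.024 to 0.057 for JUN and -0.234 to 0.100 for JUNB (siE2 against siE3). Of the 10 genes, 0 to 1 fell with siE1, 1 to 2 fell with siE2, 1 to 4 rose with siE3 and 0 to 2 fell in the average. Between siRNAs, 2 to 4 were higher and 0 to 1 lower in siE1 against siE2, 0 to 2 lower in siE1 against siE3, and 3 to 6 higher and 1 to 2 lower in siE2 against siE3. The cause was not tested. With only the groups compared, the average of the siRNAs has no value. Low counts (FOS, ATF3) and unlike libraries (EGR1) limit what could be detected.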

Other observations

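Genes of the ATF4 and unfolded protein responses, most of them effectors or targets of these pathways, were read beside ATF3, which such stress can induce. Of 10 tested, 3 rose and 1 fell with siE3, where ATF3 was low, against 3 and 2 with siE1 and 3 and 5 with siE2. Over all tested genes 21.3% rose and 20.8% fell with siE3, against 24.5% and 25.8% with siE1 and 27.9% and 28.5% with siE2. DDIT4, an inhibitor of mTOR signalling, rose by 1.01, 2.00 and 1.02 with siE1, siE2 and siE3. ATF4 itself was at -0.21, -0.16 and 0.065 (edgeR adjusted p = 0.28 for the last). XBP1 was at 0.04 (edgeR adjusted p = 0.60), -0.38 and -0.41, and the chaperone HSPA5 at 0.13, -0.33 and -0.09 (edgeR adjusted p = 0.085 for the last).

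Among 8 heat shock genes, which encode chaperones and their partners, 2 rose and 3 fell with siE1, 2 rose and 4 fell with siE2, and 2 rose and 1 fell with siE3. HSPB1 rose by 1.18, 0.86 and 1.10 and BAG3 by 0.20, 0.37 and 0.53, while HSP90AA1 was at -0.21, -0.62 and -0.12 (edgeR adjusted p = 0.13 for the last) and HSPA8 at -0.08, -0.51 and -0.11 (edgeR adjusted p = 0.32 and 0.16 for siE1 and siE3). Of 7 factors of AU-rich mRNA decay, which act on many early mRNAs, 2 rose and 3 fell in the average. ZFP36L1, a decay factor, was at 0.33, 0.36 and 0.14 (edgeR adjusted p = 0.061 for the last), and ELAVL1, which stabilises such mRNAs, at -0.38 with siE1, -0.04 with siE2 and 0.02 with siE3 (edgeR adjusted p = 0.52 and 0.81 for the last 2). HNRNPD was at -0.27 with siE2 and -0.13 with siE3, with no difference seen with siE1 (0.0003, edgeR adjusted p = 1.0), and KHSRP at -0.01 (edgeR adjusted p = 0.83), -0.11 and -0.17.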
